A study of Mus musculus with 27 samples.

Results

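Afp, H19, Gpc3, Igf2, Zhx2 and Cd24a, 6 of the 51826 genes listed, were followed by bulk RNA sequencing through 7 stages of a reproductive cycle in mouse liver. The first 4 are transcribed strongly in fetal liver and weakly in adult liver. The 6 were chosen by their levels in lactation against nulliparous liver and early after weaning, so those levels are given as a description, with no test. All 6 passed the filter on low counts that kept 16428 genes. Their fetal label could not be checked, since no fetal liver was analysed here.

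Each library held the RNA of the whole liver of 1 wild-type BALB/c mouse, an inbred laboratory strain, and the labels give no substrain. The 4 nulliparous females (NUL) had not been pregnant, and 3 mothers were sampled on day 10 of lactation (LAC). The involution groups ID2 (3 mothers), ID4 (4), ID6 (6) and ID8 (3) were sampled 2, 4, 6 and 8 days after their pups were removed. The regressed group REG (4) was sampled 4 weeks after that. All 7 groups were untreated. Mothers were bred at 10 to 12 weeks of age and litters were adjusted to even size. Weaning fell between days 10 and 14 of lactation, and animals were said to be matched for age.

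Libraries held between 41120650 and 75664540 counts. The 5 hepatocyte markers Alb, Ttr, Apoa1, Cps1 and Cyp2e1 were present in all 27 libraries, with a summed level of 178800 to 222300 CPM in LAC, 134400 to 147200 at ID2 and 92450 to 121100 in NUL (counts relative to the TMM-scaled size of the library). These 3 ranges did not overlap, and the lowest library of all stood at 87600 CPM. Alb carried most of the sum, with a median of 63260 TPM against at most 9341 TPM for the other 4. In LAC against NUL its log2 fold change was 0.98, while Ttr (-0.07), Apoa1 (0.16) and Cps1 (0.14) did not pass edgeR's test and Cyp2e1 fell by 1.48 (edgeR adjusted p = 2.57e-05), so the sum does not describe the 5 genes alike. Its part in the levels of the 6 genes was not tested. Library ID2_31 stood apart in pancreatic acinar markers, at 926.2 CPM in sum against 6.13 and 10.28 CPM in the other ID2 libraries. In bulk liver, fewer cells of a type and less RNA per cell cannot be told apart.

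Afp encodes alpha-fetoprotein, the main plasma protein of the fetus and a relative of albumin. H19 is an imprinted long non-coding RNA transcribed from the maternal chromosome, and its neighbour Igf2 encodes a fetal growth factor transcribed from the paternal chromosome. Gpc3 encodes glypican 3, a heparan sulfate proteoglycan of the cell surface. Zhx2 encodes a zinc finger and homeobox protein that silences Afp, H19 and Gpc3 in liver after birth. In the BALB/cJ substrain a retroviral insertion in the first intron of Zhx2 lowers its transcript, and adult liver keeps more Afp, H19 and Gpc3 RNA than in other strains. Cd24a encodes a small membrane glycoprotein found on biliary and progenitor cells.

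In the GENCODE annotation of GRCm38, Afp (ENSMUSG00000054932) lies on chromosome 5 at 90490737-90508907 on the plus strand. Gpc3 (ENSMUSG00000055653) lies on chromosome X at 52272426-52613950 on the minus strand. H19 (ENSMUSG00000000031, a lincRNA) at 142575529-142578143 and Igf2 (ENSMUSG00000048583) at 142650766-142666816 share the minus strand of chromosome 7. Zhx2 (ENSMUSG00000071757) lies on chromosome 15 at 57694665-57839832, and Cd24a (ENSMUSG00000047139) on chromosome 10 at 43578284-43584265, both on the plus strand. The use of strand in counting is not given in the sources used here, so reads of a gene and of its antisense partner cannot be told apart. For Afp, H19, Gpc3 and Igf2 no overlapping gene listed exceeded 6 counts in any library, and none listed overlapped Cd24a. The annotated gene Gm49394, which lies over nearly all of Igf2 on the same strand, was not analysed here. Zhx2 is overlapped by antisense genes Gm16006 and 9330154K18Rik, each with a median of 7 counts and with up to 34 and 38.

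Afp and Gpc3 are shown by the 250 bases before their RefSeq start, because both are repressed by Zhx2. The windows, 5′ to 3′, are from RefSeq on GRCm38.p6, the reference genome and not BALB/c, at chr5:90490464-90490713 (plus strand) and chrX:52613975-52614224 (minus strand). Capitals mark TATAAA, the letters of a TATA box motif.
Afp: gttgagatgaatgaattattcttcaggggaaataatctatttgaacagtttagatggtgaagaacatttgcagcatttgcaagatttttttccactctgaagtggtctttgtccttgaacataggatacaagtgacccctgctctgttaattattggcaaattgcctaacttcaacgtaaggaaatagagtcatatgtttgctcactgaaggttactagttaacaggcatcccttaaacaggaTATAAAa
Gpc3: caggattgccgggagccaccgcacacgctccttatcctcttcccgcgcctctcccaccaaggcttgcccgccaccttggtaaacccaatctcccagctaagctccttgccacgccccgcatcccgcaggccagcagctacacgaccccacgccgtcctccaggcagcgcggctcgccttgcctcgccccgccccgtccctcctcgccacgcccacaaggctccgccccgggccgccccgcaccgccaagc

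The Afp window held TATAAA, beginning 7 bases before the RefSeq start. The window ends at 90490713 and the GENCODE start of Afp is 90490737, so the distance to the start depends on the annotation. Whether these letters act as a TATA box was not tested. Both strands were searched, and 12.3% of 32536 distinct promoter windows of this length held those letters. The Gpc3 window did not. It was also far richer in CG, with 25 CG dinucleotides against 1 in the Afp window and a median of 6 over all windows. The 4 Igf2 windows did not hold TATAAA and held between 1 and 22 CG dinucleotides. So 2 genes that share a repressor had upstream windows of very different base composition.

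Levels were compared between genes on the TPM scale, which allows for gene length. The median TPM over 27 libraries was 35.82 for H19, 6.13 for Gpc3, 2.83 for Afp, 1.3 for Cd24a, 1.17 for Igf2 and 0.09 for Zhx2. H19 was thus the most abundant, and Zhx2 was near the limit of detection. From the lowest to the highest library, CPM spanned 65.1-fold for Igf2, 35.9-fold for H19, 19.01-fold for Zhx2, 14.72-fold for Gpc3, 6.22-fold for Afp and 3.287-fold for Cd24a. Library LAC_240 was the highest of all 27 for Afp, H19, Gpc3 and Igf2. All further levels are CPM, and means carry the SD over animals.

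Afp stood at 5.242, 5.519 and 6.284 CPM in the 3 LAC libraries and at 1.504, 1.527, 1.768 and 2.006 CPM in the 4 NUL libraries. It was at 2.937, 3.5 and 3.517 CPM at ID2, above every NUL library and below every LAC library. The ID4 libraries held 1.814, 1.85, 1.894 and 2.144 CPM, back inside or just above the NUL range. The order of means in CPM was LAC, ID2, ID4, ID6, NUL, ID8 and REG, and from ID4 down neighbouring stages overlapped. ID6 ranged from 1.165 to 2.556 CPM with a median of 1.868. Library ID8_14 held 2.645 CPM against 1.01 and 1.346 CPM in the other ID8 libraries, and REG held 1.142 to 1.939 CPM.

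RSEM's mean length for Afp, weighted over transcripts, was 1185.39 to 1303.36 bases in LAC, inside the NUL range of 1010.07 to 1438.03 bases. The full-length Afp mRNA annotated is 2063 bases and the other annotated Afp transcripts are 405 to 773 bases. Some reads were therefore assigned to the short transcripts in every library. The ID6 libraries ranged from 807.13 to 1074.89 bases. The order of the later stages depended on the scale. In TPM, which divides by this length, the mean was lowest in NUL (2.265 TPM), below ID8 (2.623), ID4 (2.732), REG (2.745) and ID6 (3.467).

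Gpc3 was at 22.8, 31.76 and 34.31 CPM in LAC. The NUL libraries fell into pairs, with 2.331 CPM in NUL_220 and 2.652 CPM in NUL_221 against 6.968 CPM in NUL_226 and 7.296 CPM in NUL_227. At ID2 it was still at 18.82, 20.9 and 29.74 CPM, overlapping LAC. It was at 7.293, 11, 11.32 and 12.8 CPM at ID4 and at 6.202 to 9.535 CPM at ID6, with a median of 8.847 CPM. At ID8 the 3 libraries held 11.28, 11.41 and 15.25 CPM, all above the ID6 libraries. REG held 4.943, 5.881, 6.299 and 6.759 CPM, inside the NUL range. In the order of means, ID2 and ID8 were the only neighbours whose libraries did not overlap.

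H19 was at 178.8 and 227.1 CPM in 2 LAC libraries and at 812.8 CPM in LAC_240. It was at 58.59, 58.92, 109.5 and 110.8 CPM in NUL, with NUL_220 and NUL_221 low and NUL_226 and NUL_227 high, as for Gpc3. ID2 held 131.9, 172.2 and 222.5 CPM, all above NUL. ID4 held 54.9, 64.47, 92.91 and 118 CPM, spanning the NUL range. At ID6, 5 libraries lay between 26.12 and 45.51 CPM and ID6_216 stood at 144.9 CPM. All 3 ID8 libraries, at 22.64, 23.96 and 29.85 CPM, were below every NUL library. REG held 22.97, 23.69, 34.71 and 66.89 CPM.

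Igf2 was the least abundant of the 4 fetal liver genes, with 11 to 566 counts per library. It was at 3.104 and 3.473 CPM in 2 LAC libraries and at 9.799 CPM in LAC_240, against 0.442, 0.4743, 0.7318 and 1.049 CPM in NUL. ID2 held 2.454, 4.072 and 4.37 CPM and overlapped LAC. ID4 held 1.112, 1.215, 2.508 and 3.138 CPM, all above NUL. ID6 ranged from 0.6764 to 2.794 CPM with a median of 1.058 CPM. ID8 held 0.3473, 0.4142 and 0.5031 CPM and REG 0.1505, 0.3608, 0.463 and 0.7922 CPM. Every pair of neighbours in the order LAC, ID2, ID4, ID6, NUL, REG and ID8 overlapped.

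Zhx2, the repressor, had between 3 and 60 counts per library. The exact 95% Poisson interval, which covers counting error only, was 0.6187 to 8.767 for 3 counts in ID4_211 and 45.79 to 77.23 for 60 counts in ID6_232. All its counts were assigned to the full-length transcript of 4376 bases in each of the 27 libraries. It was at 0.2846, 0.3505, 0.3648 and 0.4136 CPM in NUL and at 0.2063, 0.3636 and 0.4829 CPM in LAC. The 3 ID2 libraries were low, at 0.1103, 0.1214 and 0.1743 CPM, on 6 to 11 counts. ID4 held 0.04388 to 0.4128 CPM, ID6 0.2041 to 0.8343, ID8 0.1105 to 0.3737 and REG 0.1901 to 0.3694. Neighbouring stages overlapped throughout the order of means, which ran from ID6 to ID2.

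The related genes Zhx1 and Zhx3 were measured far more deeply in the same livers. Zhx1 had a median of 11.52 TPM and Zhx3 of 11.75 TPM, against 0.09 TPM for Zhx2. The highest Zhx2 library, at 0.27 TPM, was below the lowest Zhx1 library at 9.02 TPM and the lowest Zhx3 library at 8.6 TPM. The labels give no substrain, and none can be read from these levels.

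**Figure D1:**
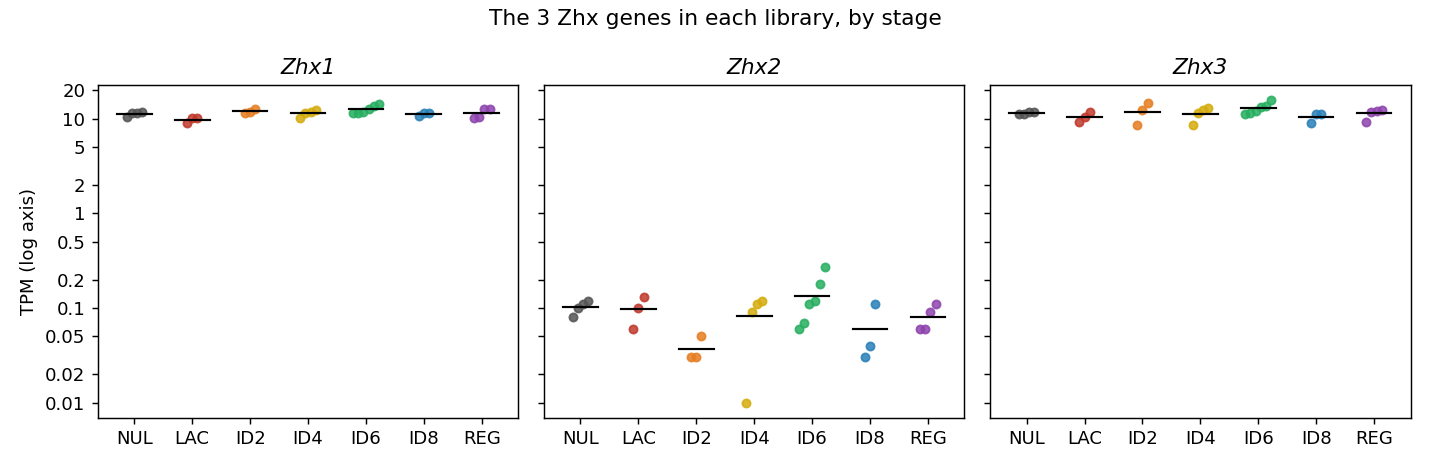
TPM on a log axis for Zhx1, Zhx2 and Zhx3 by stage. Each point is 1 library and each bar a stage mean. Zhx2 lies between 0.01 and 0.27 TPM in all stages, and the lowest Zhx1 and Zhx3 libraries lie at 9.02 and 8.6 TPM.

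Cd24a differed from the other genes in being lowest at lactation. It was at 0.8277, 1.004 and 1.754 CPM in LAC and at 1.179, 1.6, 2.28 and 2.721 CPM in NUL, so the groups overlapped. The ID2 libraries, at 2.027, 2.205 and 2.266 CPM, were all above LAC. ID4 held 0.9214 to 2.174 CPM, ID6 1.516 to 2.198, ID8 1.711 to 2.305 and REG 1.188 to 1.916. All neighbours in the order of means overlapped.

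**Figure D2:**
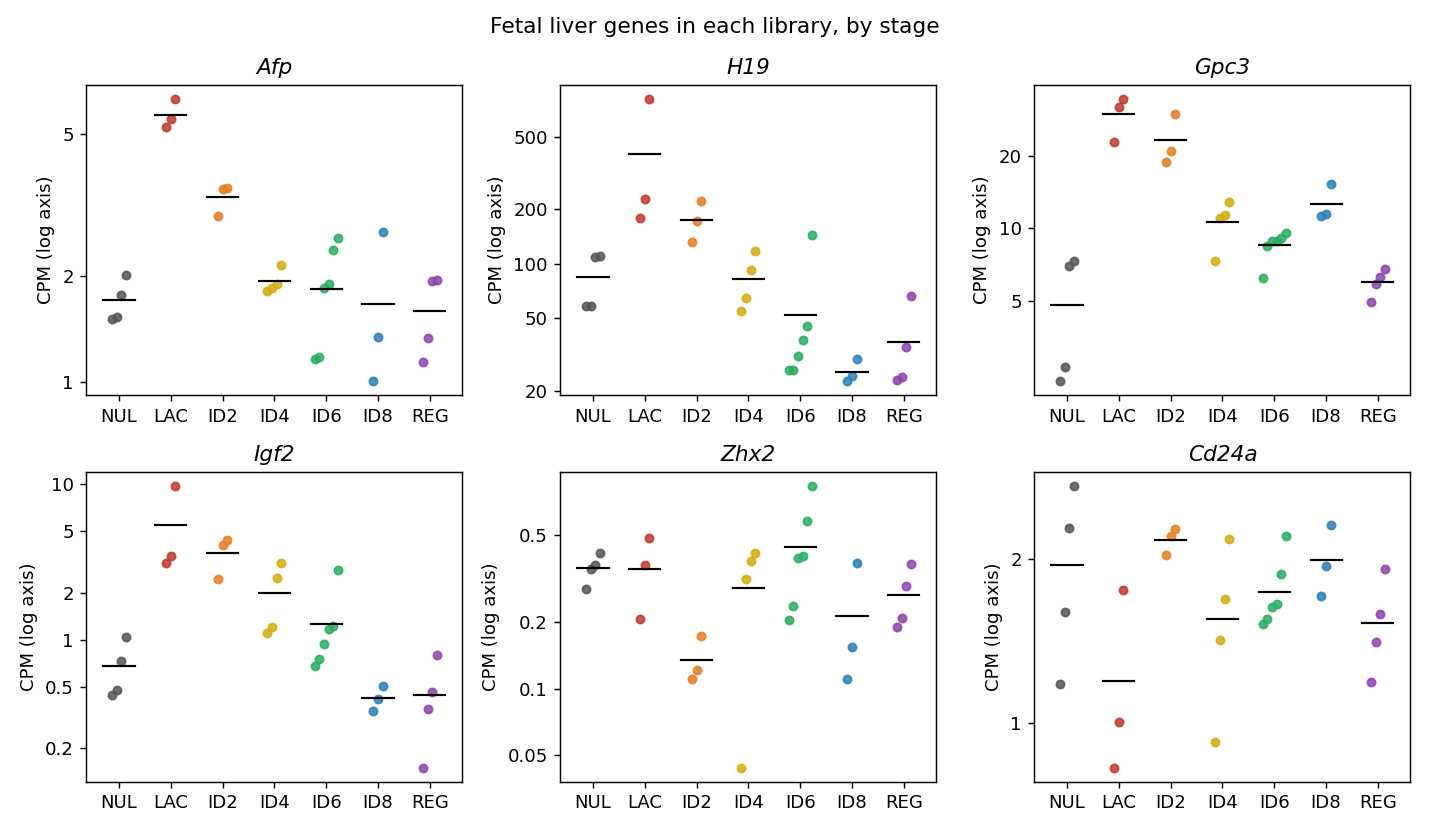
CPM on a log axis for each of the 6 genes, by stage. Points are libraries and bars are stage means. Afp, H19, Gpc3 and Igf2 are highest in LAC, where all libraries lie above all NUL libraries, and the ID8 libraries of H19 lie between 22.64 and 29.85 CPM.

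Against NUL, the fitted log2 fold change at LAC was 3.02 (SE 0.53) for Igf2, 2.62 (SE 0.31) for Gpc3, 2.27 (SE 0.59) for H19 and 1.74 (SE 0.26) for Afp. It was -0.01 (SE 0.54) for Zhx2 and -0.70 (SE 0.28) for Cd24a. For 4 of the 6 genes all LAC libraries were above all NUL libraries, which held for 10.2% of all genes tested. These values chose the genes, and nothing is read from that share. Without LAC_240 the value was 1.26 for H19 and 2.28 for Igf2. Between ID2 and LAC the fitted difference was -0.78 (SE 0.28) for Afp, -1.21 (SE 0.64) for H19, -0.36 (SE 0.32) for Gpc3, -0.59 (SE 0.53) for Igf2, -1.36 (SE 0.62) for Zhx2 and 0.86 (SE 0.30) for Cd24a. Of the 6, Afp and Zhx2 (2 genes) were lower in every ID2 library than in every LAC library, which held for 17.6% of genes. Without LAC_240 the H19 difference was -0.21 and that of Igf2 was 0.14. By limma on log2(TPM + 1) and log2(TPM + 0.1), which understate changes of low genes, the Zhx2 difference was -0.08 and -0.51 and that of Afp -0.51 and -0.60. For LAC against NUL the same scales gave 1.22 and 1.51 for Afp, and log2(TPM + 1) gave 2.07 for Igf2. With the clock component as a covariate the difference between ID2 and LAC was -0.98 for Afp and -0.89 for Gpc3.

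The later stages were tested by edgeR's quasi-likelihood test over all genes, with Benjamini-Hochberg adjustment and a threshold of 0.05. ID4, ID6, ID8 and REG were not among the groups whose levels chose the genes. Earlier results of these data were known at that choice, so independence from it is not shown. A joint test of any difference among these 4 stages was added after seeing the data. It called 1 of the 6 genes, Igf2 (edgeR adjusted p = 0.0108), beside 10.2% of all genes tested, so a count of 1 is near that share. Igf2 stood at 1.993 ± 0.9929 CPM at ID4, 1.261 ± 0.7818 at ID6, 0.4215 ± 0.07816 at ID8 and 0.4416 ± 0.2675 at REG (SD, n = 4, 6, 3 and 4). It passed without each of the 17 libraries in turn, with edgeR adjusted p of 0.00488 to 0.0304. It passed with the title-number range described further on as a covariate (0.017) and not with the number of sequencing runs (0.0583). Gpc3 (0.0732), H19 (0.199), Zhx2 (0.418), Cd24a (0.689) and Afp (0.829) did not pass, and of these only H19 passed without 1 library, ID6_216 (0.0497). A joint test that also held ID2 and NUL called 4 of the 6 genes (Afp, H19, Gpc3 and Igf2), beside 15.4% of all genes. The levels of ID2 and NUL took part in the choice, so nothing is read from that count.

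At day 2 after weaning, Gpc3 was at 23.2 ± 5.80 CPM against 4.81 ± 2.69 CPM in NUL (SD, n = 3 and n = 4), a fitted log2 difference of 2.27 (SE 0.30). Igf2 was at 3.63 ± 1.03 against 0.674 ± 0.282 CPM (2.43, SE 0.52) and Afp at 3.32 ± 0.330 against 1.70 ± 0.236 CPM (0.96, SE 0.26). For these 3 genes every ID2 library lay above every NUL library, and so it did for H19 (1.06, SE 0.58). Every ID2 library of Zhx2 lay below every NUL library (-1.37, SE 0.59), while Cd24a overlapped (0.16, SE 0.27). Both groups took part in the choice of the genes, so these values are a description. How many of all genes separated ID2 from NUL in this way was not counted, so nothing is read from these separations. The edgeR threshold was passed by 3 of the 6, beside 3.24% of all genes, and nothing is read from that share. Afp (edgeR adjusted p = 0.0411) fell short of it without ID2_224, ID2_31, ID2_39, NUL_220, NUL_221 or NUL_226 (0.07 to 0.152), without the LAC group (0.0559), with the title-number range as a covariate (0.181) and by limma on both TPM scales (0.0703 and 0.0677). Its log2 difference with the range was 0.96, as without it. Igf2 (0.0104) fell short without ID2_39 (0.0573, at 2.27) and with the range (0.103, at 2.07). Gpc3 (0.000252) fell short in a fit of the 7 compared libraries alone (0.0835, at 2.27). All 3 fell short with a component of clock genes as a covariate (Gpc3 0.0743, at 1.66, Igf2 0.298, at 1.80, and Afp 0.463, at 0.71).

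The number in the title is under 200 for 7 animals, 2 of them in ID2, 2 in ID4 and 3 in ID8, and 200 or over for all NUL animals. The labels do not say what these numbers mark. For Igf2 the ID4 libraries with lower numbers held 2.508 and 3.138 CPM and the others 1.112 and 1.215 CPM. In ID2_224, the only ID2 library in the NUL range of numbers, Afp (3.517 CPM), Gpc3 (18.82) and Igf2 (4.072) were each above every NUL library. The hour of collection is not given in the sources used here.

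The comparisons of later stages with NUL share the same 4 control libraries, whose levels took part in the choice of the genes. By day 4, Gpc3 alone (1 of 6) was called against NUL, beside 4.25% of all genes. Its log2 fold change was 1.14 (SE 0.28, edgeR adjusted p = 0.0233), and ID4_215, at 7.293 CPM, lay inside the NUL range. The call was lost without ID4_13 (edgeR adjusted p = 0.0745), ID4_15 (0.0501) or ID4_211 (0.0551), and without NUL_220 (0.0546) or NUL_221 (0.0742). Igf2, at 1.56 (SE 0.50), did not pass by edgeR (adjusted p = 0.0748), though its groups did not overlap, and passed by DESeq2 (0.0325). In an edgeR fit of the 8 ID4 and NUL libraries alone, Igf2 passed (1.57, adjusted p = 0.0397) and Gpc3 did not (1.15, 0.197). Within the numbers of 200 or over, ID4_211 and ID4_215 held 11.32 and 7.293 CPM of Gpc3, and with the range as a covariate the log2 fold change was 0.94 (edgeR adjusted p = 0.123).

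By day 6, edgeR called 0 of the 6 genes against NUL, beside 1.08% of all genes. At an unadjusted p under 0.05 there was 1, Gpc3 (log2 fold change 0.82, SE 0.26, adjusted p = 0.148), DESeq2 called 0, and limma called 0 on log2(TPM + 1) and 1 on log2(TPM + 0.1).

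At day 8, Gpc3 was again above NUL, the 1 call of 6 genes beside 0.499% of all genes. Its log2 fold change was 1.39 (SE 0.30, edgeR adjusted p = 0.0399), and all ID8 libraries lay above all NUL libraries. The call was lost without ID8_101b (edgeR adjusted p = 0.194), ID8_14 (0.0772) or ID8_98b (0.0626), and without NUL_220 (0.0692) or NUL_221 (0.0911). All ID8 animals have title numbers under 200 and all NUL animals 200 or over, so no value within a range can be had. With the range as a covariate the value was 1.01 (edgeR adjusted p = 0.39). H19 was at -1.73 (SE 0.62, edgeR adjusted p = 0.243) and Igf2 at -0.67 (SE 0.59, 0.688).

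At 4 weeks after weaning, edgeR called 0 of the 6 genes against NUL, beside 0.0852% of all genes. At an unadjusted p under 0.05 there was 1, H19 (log2 fold change -1.19, SE 0.55, adjusted p = 0.675), and DESeq2 called 0, as did limma on both TPM scales. The REG mean of H19 was 37.1 ± 20.6 CPM against 84.5 ± 29.7 CPM in NUL (SD, n = 4 each). For Afp the difference was -0.10 (SE 0.25), turning to 0.19 and 0.25 on the TPM scales, and for Gpc3 0.32 (SE 0.29).

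**Figure D3:**
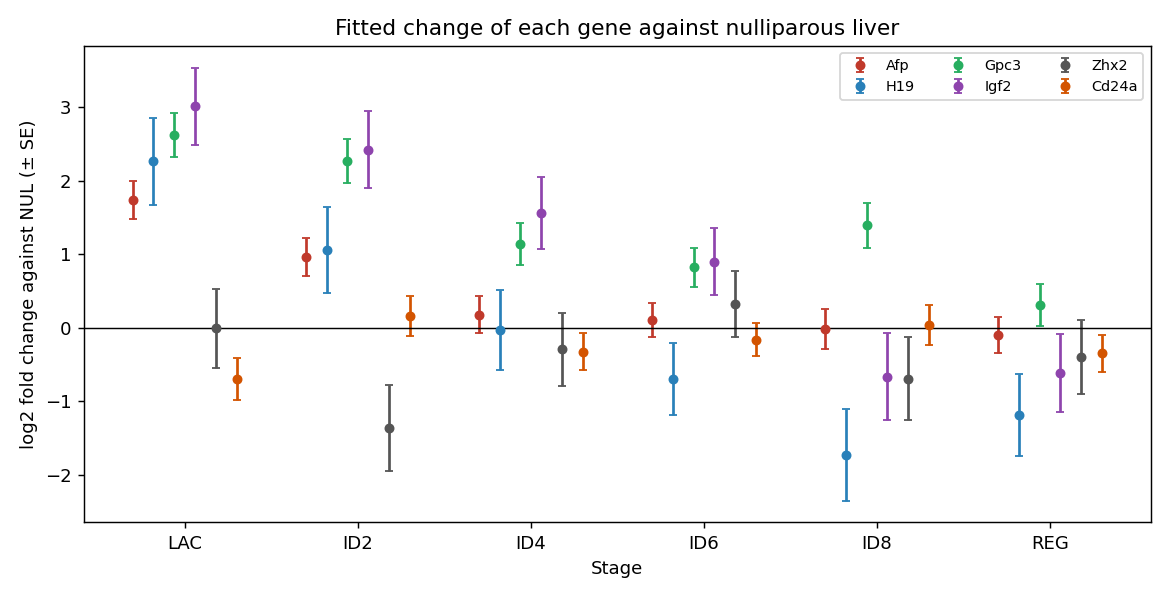
Fitted log2 fold change of each gene against NUL at the 6 other stages, with its standard error. Gpc3 is above 0 at each stage, from 2.62 at LAC to 0.32 at REG, while H19 runs from 2.27 at LAC to -1.73 at ID8.

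Between successive stages after weaning, edgeR called 0 of the 6 genes in each of 4 comparisons. The background was 1.49% of genes for ID4 against ID2, 8.53% for ID6 against ID4, 4.12% for ID8 against ID6 and 0.0487% for REG against ID8. For ID4 against ID2, where the ID2 levels took part in the choice, 2 genes had an unadjusted p under 0.05. Gpc3 was at -1.13 (SE 0.30, edgeR adjusted p = 0.0559) and Afp at -0.78 (SE 0.26, 0.14), neither with overlap between groups. DESeq2 called 1 there, Gpc3 (adjusted p = 0.0155), and limma called 1 on log2(TPM + 1) and 0 on log2(TPM + 0.1). For ID6 against ID4, 0 had an unadjusted p under 0.05, and DESeq2 and limma called 0. For ID8 against ID6, 2 had an unadjusted p under 0.05, Igf2 at -1.57 (SE 0.55, edgeR adjusted p = 0.106) and Gpc3 at 0.57 (SE 0.27, 0.241). DESeq2 called 1 of them, Igf2 (adjusted p = 0.0368), and limma 0. For REG against ID8, 1 had an unadjusted p under 0.05, Gpc3 at -1.08 (SE 0.30, edgeR adjusted p = 0.241), and DESeq2 and limma called 0.

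Among animals of the same stage, those with more H19 had more Igf2. Deviations from the stage mean in log2 CPM had a Pearson r of 0.849 (p = 0.0001, adjusted p = 0.0015) and a Spearman rho of 0.767 (p = 0.00025, adjusted p = 0.00375). These p-values are two-sided, from 100000 permutations within stages over 27 libraries, adjusted over the 15 pairs of the 6 genes. Without the 2 libraries farthest from the median of H19, ID6_216 and LAC_240, r was 0.753. It was 0.701 in the 11 libraries sequenced in 1 run and 0.933 in the 16 sequenced in 2 runs. In the 20 animals with title numbers of 200 or over r was 0.867, and in the 7 with lower numbers it was 0.356. The 2 genes lie on the same strand of chromosome 7 and are expressed from opposite parental chromosomes, and no allele was measured here.

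Of the 15 pairs, H19 with Igf2 was the 1 pair that passed on either measure. The next by r were Gpc3 with Cd24a (r = 0.525, permutation p = 0.0669, adjusted p = 0.334) and H19 with Gpc3 (r = 0.395, permutation p = 0.0345, adjusted p = 0.259). Without NUL_220 and NUL_221, r for Gpc3 with Cd24a was 0.213. For Zhx2 and the 3 genes it represses, no relation passed, with adjusted permutation p of 0.714 to 0.996. Zhx2 had r = 0.224 with Afp, 0.00651 with H19 and -0.000893 with Gpc3. Within subsets these varied widely. For Afp r was 0.97 in the 7 animals with title numbers under 200 and -0.0417 in the other 20, and for Gpc3 it was 0.863 in the 11 libraries of 1 run and -0.00406 in the 16 of 2 runs. For H19 it was -0.0422 and -0.162 over the title numbers, and -0.263 and 0.18 over the runs. Zhx2 had 3 to 60 counts per library, and what relation this depth could show was not tested.

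**Figure D4:**
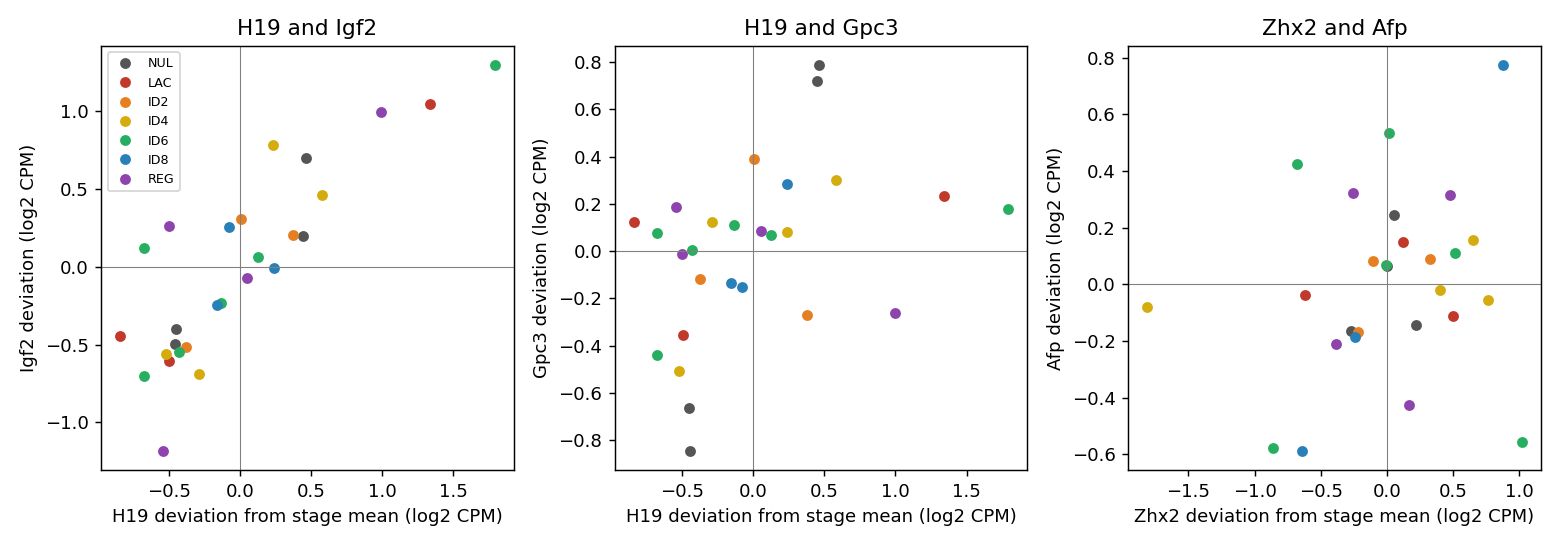
Deviation of each library from its stage mean, in log2 CPM, for H19 and Igf2, H19 and Gpc3, and Zhx2 and Afp. Points are the 27 libraries, coloured by stage. H19 and Igf2 rise together (r = 0.849), and Zhx2 and Afp scatter (r = 0.224).

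Over all 27 libraries, stages included, the genes with the most similar pattern were found by Pearson r of log2 CPM among 10498 genes. These values are a description, and the libraries share stage and depth. For Afp they were Ces2c (r = 0.8733), Nabp1 (0.8303) and Msra (0.8122). For H19 they were Stmn1 (0.8189), Mcm2 (0.8121) and Ppl (0.8031). For Gpc3 they were Morc4 (0.8583), Ugt1a9 (0.8498) and Nab2 (0.8287). For Igf2 they were Ugt1a9 (0.8959), Antxr2 (0.8914) and H19 itself (0.8687). Ugt1a9 shares exons with other Ugt1a genes, so its count depends on how reads were divided. For Zhx2 the values were lower, with Pdilt (0.6874), Prkx (0.6869) and Itpripl1 (0.6864), as for Cd24a with Mmp2 (0.7039), Gpc6 (0.6898) and Ppic (0.6655).

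Genes described elsewhere as responsive to Zhx2 were mostly higher in LAC. Of 5 tested, 4 rose against NUL by edgeR, beside 11.2% of all genes called, and the median log2 fold change of the 5 was 1.302 against -0.01 over all genes. The list was not divided by the direction in which Zhx2 acts on each gene. It was also chosen with earlier results of these data known, so nothing is read from its count or median. Lpl, which encodes lipoprotein lipase and is silenced in liver after birth, rose by 3.02 (SE 0.31, edgeR adjusted p = 6.52e-06), from 15.1 ± 6.52 to 122 ± 34.9 CPM. Cyp2a4, a steroid hydroxylase, rose from 587 ± 138 to 1447 ± 51.4 CPM (edgeR adjusted p = 2.17e-05). The urinary protein genes Mup21 (1.49) and Mup20 (0.83) also rose, and Mup3 was at -0.15 (edgeR adjusted p = 0.743). Among the 6 stages without LAC, 2 of the 5 were called, beside 15.4% of all genes, Lpl (edgeR adjusted p = 0.00158) and Cyp2a4 (0.000452). At REG, Cyp2a4 was at 1139 ± 223 CPM. Cyp2a4 and the Mup genes have near-identical relatives, so their counts depend on how shared reads were divided. Elovl3 and Cyp4a12a did not pass the filter, at no more than 0.26 and 0.1 TPM.

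None of the 10 transcription factors acting on the Afp gene that are reported here passed the test at lactation. Of these (Zhx1, Zhx3, Zbtb20, Nr5a2, Foxa1, Foxa2, Foxa3, Hnf4a, Cebpa and Cebpb), edgeR called 0 in LAC against NUL, beside 11.2% of all genes, so a count of 0 or 1 is near the background. At an unadjusted p under 0.05 there was 1, DESeq2 called 0 and limma 0 on both TPM scales. The largest differences were -0.36 (SE 0.15, edgeR adjusted p = 0.114) for Foxa1, a forkhead factor of liver, and 0.19 (SE 0.14, 0.453) for Cebpa. Zbtb20, another repressor of Afp after birth, was at 0.08 (SE 0.24). Among the other 6 stages 3 of 10 were called by edgeR, beside 15.4% of all genes, Foxa1 (adjusted p = 3.68e-05), Foxa2 (0.0358) and Cebpa (0.00872). The count there was 1 with the clock component as a covariate. It was 2 with no filter, with the title-number range or the number of runs as a covariate, or by limma on either TPM scale. Foxa1 was at 7.63 ± 0.715 CPM at ID2 against 12.9 ± 2.53 CPM in NUL.

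Of the relatives of Afp in the albumin family, 2 of 3 rose in LAC by edgeR, beside 11.2% of all genes called. Alb, the main plasma protein of the adult, rose by 0.98 (adjusted p = 5.48e-05) and Afm, which encodes afamin, by 0.31 (0.042), while Gc, the vitamin D binding protein, was at 0.24 (0.164). The Afm call held in 5 of 9 alternative fits. Alb (0.0268) and Gc (0.0172) were called among the other 6 stages, beside 15.4% of all genes. Of the 3 genes, 1 was called there with the title-number range or the clock component as a covariate or by limma on either TPM scale. Of the 4 other glypicans tested, edgeR called 0 in LAC against NUL, DESeq2 and limma called 0, and 2 had an unadjusted p under 0.05. Gpc1 was at -0.78 (edgeR adjusted p = 0.0822) and Gpc6 at -0.59 (0.085), and the list's median was -0.47, opposite in sign to Gpc3. Among the other 6 stages edgeR called 0 of these 4, with 1 at an unadjusted p under 0.05, and DESeq2 called 1.

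Of 11 genes of the insulin-like growth factor axis (Igf1, the receptors and the binding proteins), 1 was called in LAC against NUL, near the share of all genes called (11.2%). Igfbp3, a carrier of circulating growth factor, fell by 0.85 (edgeR adjusted p = 0.0165). Igfbp1 was at -0.83 (0.614), and the median of the list was -0.23. Igfals (edgeR adjusted p = 0.00542) and Igfbp4 (0.0099) were called among the other 6 stages, both with their highest stage mean at ID4 (272.5 and 1912 CPM) and the next at ID2. These 2 of 11 were also near the share of all genes (15.4%). The count there was 5 by DESeq2, 3 by edgeR with RLE scaling and 1 by limma on either TPM scale. The share of all genes called by these is not given here.

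Of 14 other imprinted genes tested, 3 were called in LAC, beside 11.2% of all genes. Gnas rose by 0.24 (edgeR adjusted p = 0.0345), and Dcn and Slc38a4 fell by 0.52 (0.00244) and 0.47 (0.00729). The Gnas call held in 5 of 9 alternative fits. Meg3 and Rian, maternally expressed non-coding RNAs, were at -1.18 (0.273) and -1.04 (0.229) on at most 50 counts. Among the other 6 stages Cdkn1c (0.00693), Grb10 (0.00135) and Slc38a4 (0.000259) were called, 3 of 14 beside 15.4% of all genes. Cdkn1c, a maternally expressed inhibitor of cell division, was at 7.26 CPM on average in both NUL and LAC.

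Of 12 further genes linked to fetal or tumour liver 7 were tested, and 3 were called in LAC, beside 11.2% of all genes. Aldoc, the brain form of aldolase, rose by 1.02 (edgeR adjusted p = 0.00141) and Hmga1, a chromatin protein, by 0.55 (0.0139), a call that held in 6 of 9 alternative fits. Igf2bp3, which binds Igf2 mRNA, was called lower (0.0268) on 0 to 1 counts in LAC against 6 to 16 in NUL, and in 6 of 8 alternative fits. The list's median was -0.37. Aldoc (2.34e-05) and Pkm (0.0289) were called among the other 6 stages, beside 15.4% of all genes, and Aldoc was still at 14.9 ± 0.796 CPM at ID2 against 8.29 ± 1.35 CPM in NUL. Of 10 genes of adult hepatocytes, 4 were called in LAC by edgeR, beside 11.2% of all genes, with Alb (0.98) and Cyp3a11 (0.71, adjusted p = 0.0124) higher and Cyp2e1 (-1.48, 2.57e-05) and Pck1 (-1.36, 0.0427) lower. The Pck1 call held in 6 of 9 alternative fits. Their median was 0.03. Alb, Cps1 (0.049) and Cyp2e1 (0.0418) were called among the other 6 stages, 3 of 10 beside 15.4% of all genes. Of these 10 genes 0 were called there with the title-number range or the clock component as a covariate, 1 with the number of runs, without the LAC group or by limma on either TPM scale, and 5 by DESeq2.

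Markers of dividing cells were higher in LAC. All 4 (Mki67, Top2a, Ccnb1 and Cdk1) rose against NUL by edgeR, beside 11.2% of all genes called, and their summed level was 31.07 to 44.15 CPM in LAC against 4.877 to 15.85 CPM in NUL. It was 11.14 to 22.44 CPM at ID2, 7.04 to 11.87 at ID4, 4.353 to 10.04 at ID6, 4.297 to 13.21 at ID8 and 3.454 to 6.185 at REG. At ID2 against NUL edgeR called 0 of the 4, as did DESeq2 and limma, and 1 had an unadjusted p under 0.05. None of the 4 was at 0 in any library. The 6 bile duct markers, which bear on Cd24a, summed to 21.44 to 28.01 CPM in LAC against 33.94 to 47.17 CPM in NUL, and 2 of 5 tested were called lower. Spp1 carried that sum, with a median of 30.96 TPM against at most 1.55 TPM for the other 4 tested. Spp1 was at -0.74 (edgeR adjusted p = 0.00146) and Sox9 at -1.11 (0.0303, a call that held in 6 of 9 alternative fits). Krt7 (0.13), Krt19 (-0.08) and Epcam (-0.29) did not pass, so the sum does not show a fall of the whole list. Stellate cell markers (176.9 to 181.7 CPM in LAC, 227.6 to 281.9 in NUL) and macrophage markers (193.8 to 277.2 and 293.8 to 376) were also lower in LAC in sum, with 3 of 5 and 3 of 4 genes called. B cell markers summed to 1.281 to 1.983 CPM in LAC and 2.781 to 5.568 in NUL, with 2 of 5 called lower by edgeR. Endothelial markers summed to 110.7 to 124.4 CPM in LAC and 137.8 to 158.2 in NUL, where edgeR and DESeq2 called 0 of 3, limma called 1 on each TPM scale and 2 had an unadjusted p under 0.05. Erythroid markers summed to 240.6 to 349.6 CPM in LAC, 108.3 to 245.2 in NUL and 7.067 to 12.3 at ID8, and 3 of the 6 were at 0 in some library. The part of these in the levels of the 6 genes was not tested.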

How the data were processed

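Whole livers were flash frozen and pulverised, RNA came from a Trizol extraction, and libraries from a NEBNext Ultra kit, per the labels. The submitters' processing notes name STAR 2.6.1a, RSEM 1.3.1, mm10 and GRCm38. The annotation, trimming and strand setting are not given in the sources used here. The authors' readme lists 16 libraries sequenced in 2 runs and 11 in 1. The authors deposited an expected count per gene, not normalised, and TPM, scaled by gene length within a library, per the file headers. The gene length in the deposited tables is RSEM's mean over transcripts, per the file headers.

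Identifiers were matched to GENCODE M21, where 51633 of 51826 were found. Promoter windows were in the RefSeq table for 3 of the 6 genes. No count of the 6 genes was farther than 0.005 from a whole number in any library. Expected counts were rounded before the fit in edgeR 4.0.16 under R 4.3.3 (filterByExpr, TMM, 1 robust quasi-likelihood fit of 27 libraries and 7 groups, two-sided, Benjamini-Hochberg within each comparison over 16428 genes). SE was taken from the fold change and its F statistic. The script was tested on simulated data. Alternatives used DESeq2 1.42.0, limma 3.58.1 on log2(TPM + 1) and log2(TPM + 0.1), other scalings, filters, covariates and sample sets, and each library left out. Permutation tests used numpy 2.4.6.

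The genes and the lists were chosen with earlier results of these data known. Listed genes are named where they passed in LAC against NUL or among the other 6 stages, and for the 2 of largest fold change per list; Zbtb20, Mup3, Gc and the levels of Zhx1 and Zhx3 were added after their values were seen. Of the factors listed as acting on Afp, 2 are not reported here. The genes most alike to each are the 3 of highest r with a mean of at least 1 log2 CPM. Each library is a separate animal by its title, and p-values measure the spread between these animals.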

Additional observations from a re-analysis of the deposited data

Results flagged for a closer look

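In 24 sets of 4 to 6 libraries (6 genes in NUL, ID4, ID6 and REG), 3 sets held a library farther from the others than Dixon's limit, which chance alone passes in about 1 of 20 sets. The 3 sets came from 2 libraries, and 1 of these accounts for H19 and Igf2, which also vary together within stages. At ID6, library ID6_216 was highest for H19, at 144.9 CPM against 26.12 to 45.51 CPM in the other 5, and for Igf2, at 2.794 CPM against 0.6764 to 1.22 CPM. Its proliferation markers summed to 5.47 CPM, inside the range of the other ID6 libraries, as did its bile duct, B cell and endothelial markers. It was the highest ID6 library for erythroid markers (82.93 CPM against 18.77 to 35.55) and hepatocyte markers (144500 against 94370 to 110100). The same held for macrophage (659.8 against at most 608.8), stellate (267.6 against at most 242.2) and neutrophil markers (5.351 against at most 4.892). Their part in its H19 and Igf2 levels was not tested. Also at ID6, library ID6_218 was lowest for Gpc3, at 6.202 CPM against 8.44 to 9.535 CPM.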

How the results depend on the processing

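No paired analysis was possible because no number occurs in more than 1 group. The counts of the 6 genes called against NUL at ID2 (3 by edgeR) became 1 with the title-number range as a covariate and 0 with the clock component, which was added after seeing the data, and ran from 1 to 3 with each library left out. At ID4 (1) they became 0 with the title-number range and 2 by DESeq2, and ran from 0 to 1 with each library left out. At ID6 (0) 1 was called by limma on log2(TPM + 0.1). At ID8 (1) 0 remained with no filter, without the LAC group, with the title-number range, with the clock component and with the 2 compared groups alone, and leaving out each library gave 0 to 1. For ID4 against ID2 (0), 2 were called with the compared groups alone, 1 by limma on log2(TPM + 1) and 1 by DESeq2. For ID8 against ID6 (0) DESeq2 called 1, and for REG against ID8 (0) the compared groups alone gave 1. Among the 6 stages without LAC (4), 2 were called with the clock component, 1 with only ID4, ID6, ID8 and REG, a test added after seeing the data, and 2 to 4 with each library left out. There Afp did not pass with the title-number range (adjusted p = 0.083), the clock component (0.211) or limma on log2(TPM + 1) (0.106) and log2(TPM + 0.1) (0.1), nor H19 with the clock component (0.0882). ID2 and NUL took part in choosing the genes, so neither the ID2 counts nor these are independent of the choice. Igf2 in REG against NUL (-0.62) turned to 0.0785 and 0.0722 by limma on log2(TPM + 1) and log2(TPM + 0.1), and Afp there (-0.10) to 0.1875 and 0.2509 on these scales and 0.0384 with the number of runs, with -0.21 to 0.0285 without each library. Cd24a in ID2 against NUL (0.16) turned to -0.0792 with the title-number range and ran from -0.0231 to 0.3618 without each library. None of these 3 passed in any alternative. For ID4 against NUL with the compared groups alone the count stayed at 1, with Igf2 in place of Gpc3. The causes were not tested. The number of runs as a covariate, also added after seeing the data, moved none of these counts past 1.5 times except that over ID4, ID6, ID8 and REG alone (1 to 0, Igf2 adjusted p = 0.0583), and the 1 of 15 within-stage relations was called in all 29 alternatives. On log2(TPM + 0.1) the median of all genes was 0.1257 for ID6 against ID4 and -0.1105 for ID8 against ID6. Depth limits Zhx2 most, at 3 to 60 counts.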
